A study of Mus musculus with 8 samples.

Results

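The genes described here are 10 nuclear genes of the mitochondrial programme of striated muscle and their regulators: Chchd10, Chchd2, Cox6a2, Cox7a1, Cox8b, Ckmt2, Slc25a4, Ppargc1a, Ppargc1b and Esrra. They were taken by gene symbol from a table of 19301 genes, and all 10 were in it. The list was chosen on earlier results of the same HFHG against low glucose comparison, in which Chchd10 and Cox6a2 were among the genes with the largest decrease. The differences of these 10 genes between the groups are therefore given as a description, with standard errors and without p-values. The mRNA came from primary tendon stem cells (TSCs) of the patellar tendon of C57BL/6J mice. For 4 days the cells were kept either in low glucose medium (LG), with DMSO as the vehicle, or in medium with high glucose and palmitic acid, a saturated fatty acid (HFHG). Each group held 4 biological replicates, and the labels name no genetic change. Both groups shared the cell source and differed in glucose and palmitic acid together, so that the effects of glucose and of the fatty acid cannot be told apart. Expression was measured as FPKM, fragment counts scaled by gene length and by the size of the library. Levels of different genes can be set side by side only as far as the gene lengths used are right.

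Cytochrome c oxidase, the last complex of the respiratory chain, is built from subunits of which several exist as a pair of isoforms, one found in most tissues and one found mainly in heart and skeletal muscle. COX6A2, COX7A1 and COX8B are such muscle-type subunits, CKMT2 is the mitochondrial creatine kinase of striated muscle, and SLC25A4 (ANT1) is the ADP/ATP carrier that is abundant in muscle. CHCHD10 and its paralog CHCHD2 are small proteins of the space between the mitochondrial membranes, and the coactivators PGC-1α (Ppargc1a) and PGC-1β (Ppargc1b) work with the nuclear receptor ERRα (Esrra) in the transcription of mitochondrial genes.

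The 8 libraries were of similar depth, with 34308108 to 37362725 reads each, and 16523 to 17015 genes per library had a value above 0. Genes with at least 0.5 FPKM in at least 4 of the 8 libraries were kept for testing, which left 11710 genes. Of the 10 genes described here, 6 passed this filter (Chchd10, Chchd2, Cox6a2, Cox7a1, Slc25a4 and Esrra) and 4 did not (Cox8b, Ckmt2, Ppargc1a and Ppargc1b). At an adjusted p-value below 0.05 in limma, 34.0% of the tested genes were higher and 30.8% were lower in HFHG. Which direction held the more genes depended on the scaling, with 3983 higher and 3609 lower here, 4692 and 3000 after rescaling all libraries to one sum, 3775 and 3792 after median-ratio scaling, and 3606 and 4024 after quantile normalization. The HFHG and LG values did not overlap in 59.2% of the tested genes, and 5.33% passed a log2 fold change of 1 in either direction at an unadjusted p-value below 0.05. The median log2 fold change over the tested genes was 0.02.

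HFHG replicates 3 and 4 stood apart from the other 6 libraries in some transcripts of heart muscle. Among all 19301 genes, 5 had in each of the other 6 libraries at least 10 reads and more than 5 times the reads of either HFHG replicate 3 or 4. These were Actc1, Myh6, Myl2 and Myl3, which encode cardiac actin, a cardiac myosin heavy chain and myosin light chains of the ventricle, and Ckmt2 itself. Myh6 had 63, 78, 1 and 1 reads in HFHG replicates 1 to 4 and 68, 74, 74 and 48 reads in the LG replicates. Actc1 had 25, 18, 0 and 0 reads in HFHG and 19, 10, 27 and 21 reads in LG. This search was made after the values had been seen, and not all markers of the cardiac list showed the split. Nppb had 13, 9, 10 and 17 reads in HFHG replicates 1 to 4 and Ryr2 had 19, 14, 9 and 17, while Tnnt2 had 25, 36, 13 and 0. The 15 genes of the cardiac marker list summed to 512, 403, 163 and 180 reads in HFHG and to between 400 and 503 reads in LG. No single cardiac marker was without reads in all 8 libraries, but Nppa, Myl7, Nkx2-5, Hand2 and Tbx5 had at most 7 reads in any of them. The differences of Cox6a2, Cox7a1, Cox8b, Ckmt2, Mb and Myl3 are given below with and without HFHG replicates 3 and 4. In bulk RNA, fewer cells of a type and less RNA per cell cannot be told apart.

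All 18 genes of the tendon marker list passed the filter, among them Bgn, Dcn and Ly6a as the most abundant. Macrophage transcripts such as Lyz2 were also present in all libraries, with levels given below. Among regulators of the skeletal muscle lineage, Myod1 had 4 and 1 reads in a pair of LG libraries and 0 in the other 6, and Myf6 had 1 read in 1 library. Pax7 had 4, 28, 10 and 2 reads in HFHG and 9, 3, 0 and 4 reads in LG. Some structural transcripts of striated muscle were present, such as Acta1 with 35 to 217 reads and Tnnc1 with 65 to 171 reads per library. Others were nearly absent, such as Myh1, Myh4 and Myl1 with at most 7, 10 and 3 reads in any library. Ucp1, the marker of brown fat, had 1 read in all. The muscle-type names of the genes below refer to where the isoforms are known to be abundant and do not state the identity of the cultured cells.

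Chchd10 and Cox6a2 showed the largest log2 differences of the 10 genes, and which of the pair was larger depended on the setting. Chchd10 was 14.7, 15.4, 13.7 and 14.7 FPKM in HFHG replicates 1 to 4 and 85.7, 84.9, 86.3 and 98.5 FPKM in LG replicates 1 to 4. All HFHG libraries lay far below all LG libraries, and within LG replicate 4 was the highest. The means were 14.6 ± 0.674 and 88.8 ± 6.46 FPKM (SD, n = 4 each), which is 6.08-fold lower in HFHG, and the difference on the log2(FPKM + 0.1) scale was -2.59 (standard error 0.0497). These values rested on 766 to 851 reads per HFHG library and 4561 to 5439 reads per LG library. The value did not follow the split of the HFHG libraries, with a log2 difference of -2.55 without HFHG replicates 3 and 4. Chchd10 (NCBI gene 103172) lies on the plus strand of chromosome 10 of GRCm38 from 75933130 to 75937747. Exons of Mmp11 and Gm867, on the other strand, overlap its exons, and the sources used here do not state whether reads were counted by strand. Mmp11 was 24.8 to 26.8 FPKM in HFHG and 38.3 to 41.4 FPKM in LG, and Gm867 was 1.27 to 2.14 and 3.31 to 4.82 FPKM.

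Chchd2, the paralog of Chchd10, differed by less than the spread between replicates. It was 179, 174, 166 and 167 FPKM in HFHG and 163, 156, 166 and 181 FPKM in LG, so that the groups overlapped. The log2 difference was 0.05 (standard error 0.0409). Chchd2 (NCBI gene 14004) is on chromosome 5 from 129881156 to 129887470, minus strand. Its transcripts are near-identical to those of 4 other annotated genes, 2 of them pseudogenes and 1 of them Zbed5, which has values of its own. The share of Chchd2 reads that belong to these genes is unknown. The FPKM of Chchd2 was 1.87 ± 0.0427 times that of Chchd10 in LG and 11.8 ± 0.453 times in HFHG (SD, n = 4 each). The ratio lay between 1.835 and 1.92 in LG and between 11.35 and 12.2 in HFHG. The sum of both paralogs was 186 ± 6.66 FPKM in HFHG and 255 ± 16.6 FPKM in LG. The deposited values correspond to lengths of 910 bases for Chchd2 and 1552 for Chchd10, against 2269 and 1575 exon bases in GENCODE M21. The ratio, the sum and which paralog was more abundant in LG depend on the length used. The fold change of the ratio between the groups does not.

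**Figure D1:**
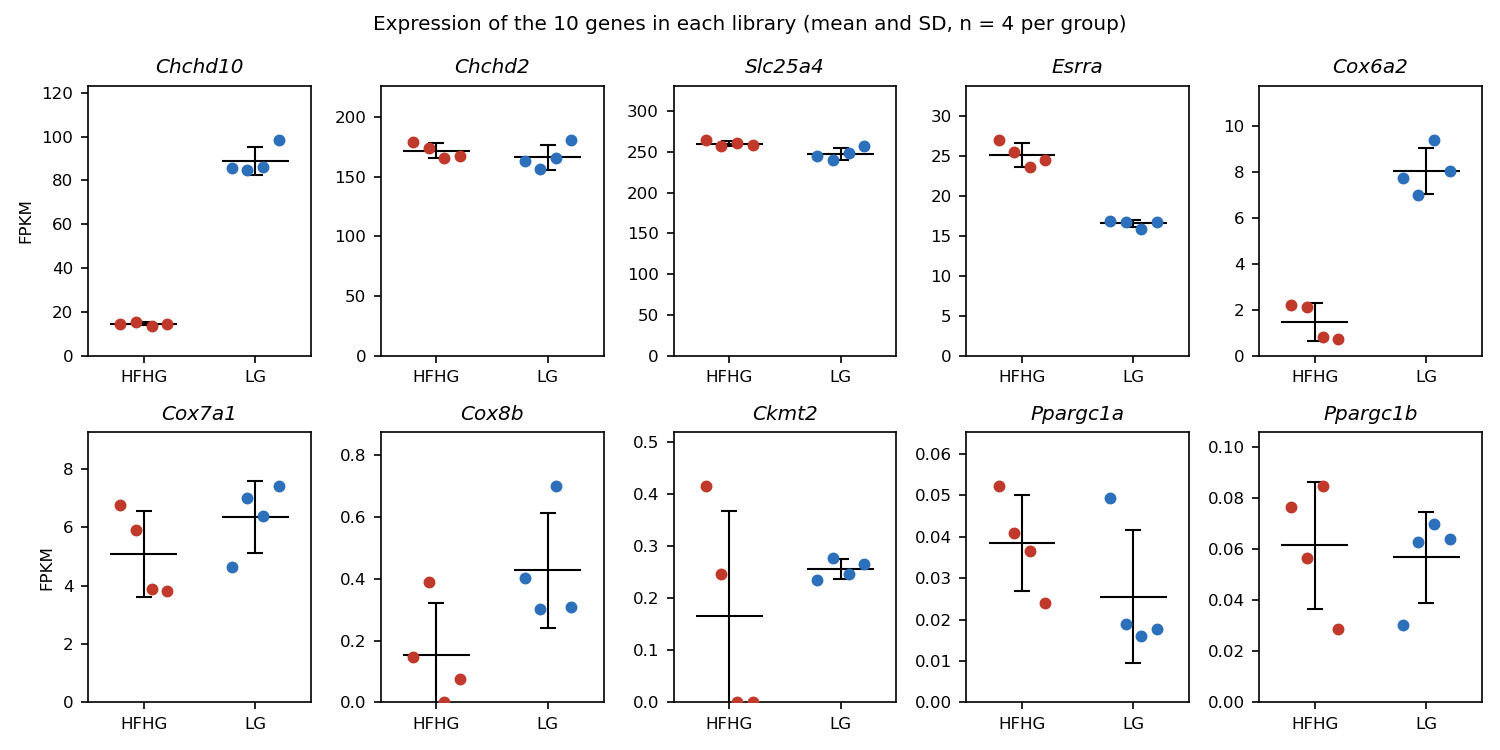
FPKM of the 10 genes in each library of HFHG (red) and LG (blue), with each axis starting at 0; points are libraries in the order of their replicate number, and the line and bar are the mean and SD (n = 4). Chchd10 and Cox6a2 were lower and Esrra was higher in every HFHG library than in any LG library, while Cox8b, Ckmt2, Ppargc1a and Ppargc1b stayed below 1 FPKM.

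The upstream sequences of Chchd10 and Esrra are shown because these were the abundant genes of the list with clearly separate groups, one lower and one higher in HFHG. They are the 250 bases before the RefSeq start (GRCm38.p6), on the strand of the gene and 5′ to 3′, at chr10:75932880-75933129 (plus strand) and chr19:6921809-6922058 (minus strand). Capitals mark GC boxes (GGGCGG or its reverse complement).
Chchd10: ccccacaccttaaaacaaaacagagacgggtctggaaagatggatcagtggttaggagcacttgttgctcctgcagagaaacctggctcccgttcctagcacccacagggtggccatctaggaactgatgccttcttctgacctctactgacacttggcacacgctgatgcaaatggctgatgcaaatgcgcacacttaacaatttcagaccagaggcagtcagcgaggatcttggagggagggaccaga
Esrra: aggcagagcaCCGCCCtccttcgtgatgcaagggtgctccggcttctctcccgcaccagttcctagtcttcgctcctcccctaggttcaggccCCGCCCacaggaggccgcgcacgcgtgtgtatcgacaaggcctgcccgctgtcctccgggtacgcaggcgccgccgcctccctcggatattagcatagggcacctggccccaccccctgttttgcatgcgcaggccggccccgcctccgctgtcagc
Of the 10 genes, 7 had a promoter that was searched. Both strands were searched for the ERR half-site TNAAGGTCA, the E-box CACGTG, the GABPA core CCGGAA, the GC box GGGCGG and the MEF2 motif. The window of Chchd10 held none of these letters, which says only that they are absent from these 250 bases. The window of Esrra held 2 GC boxes, at 240 and 157 bases before the start, and 32.7% of 32851 mouse promoter windows of this length held at least 1. Ckmt2 held 1 GC box at 46 bases and Slc25a4 held 1 GABPA core at 130 bases before the start. The GABPA core was in 12% of all windows, the E-box in 6.02%, the ERR half-site in 1.14% and the MEF2 motif in 0.508%. No other match was found in the windows of Cox7a1, Cox8b and Ppargc1a.

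Cox6a2, the muscle-type subunit 6A, was lower in HFHG, at 2.19, 2.14, 0.801 and 0.747 FPKM against 7.74, 6.98, 9.38 and 8.02 FPKM in LG. These are 54, 50, 19 and 18 reads in HFHG and 175, 167, 219 and 188 reads in LG. The groups did not overlap, and within HFHG replicates 3 and 4 were the lowest. The means were 1.47 ± 0.806 and 8.03 ± 1.001 FPKM (SD, n = 4 each), a 5.46-fold lower level in HFHG with a log2 difference of -2.52 (standard error 0.292). Without HFHG replicates 3 and 4 the difference was -1.83, from a mean of 2.17 FPKM in HFHG replicates 1 and 2, and without HFHG replicates 1 and 2 it was -3.21. In HFHG replicates 1 and 2 Cox6a2 was 3.70-fold below the LG mean. Between HFHG replicates its level moved with the heart muscle transcripts, and their part in the result was not tested. Cox6a2 (NCBI gene 12862) lies on chromosome 7 from 128205435 to 128206387 on the minus strand, and its exons overlap those of Itgad on the other strand, which stayed at or below 0.114 FPKM in all libraries.

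Cox6a1, the isoform of most tissues, was far more abundant than Cox6a2 and rose slightly in HFHG. It was 336, 337, 323 and 294 FPKM in HFHG and 265, 251, 265 and 296 FPKM in LG (log2 fold change 0.26, standard error 0.0511, adjusted p = 6.20e-04 in limma). LG replicate 4 lay above HFHG replicate 4, so the ranges overlapped. Transcripts of 1 other annotated gene are near-identical to Cox6a1, and its values are uncertain to that extent. Cox6a2 made up 0.445% ± 0.225 of the sum of both isoforms in HFHG and 2.90% ± 0.356 in LG (SD, n = 4 each).

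Cox7a1, the muscle-type subunit 7A, was 6.75, 5.90, 3.87 and 3.81 FPKM in HFHG and 4.63, 7.01, 6.38 and 7.39 FPKM in LG. The groups overlapped, since HFHG replicates 1 and 2 were within the range of LG while replicates 3 and 4 were below it. The log2 difference was -0.34 (standard error 0.185) with all libraries, 0.01 without HFHG replicates 3 and 4, and -0.69 without HFHG replicates 1 and 2. The size of the Cox7a1 difference thus depended on the pair of libraries in which the heart muscle transcripts were near 0, and the part of these transcripts was not tested. Its counterparts were lower in HFHG in all libraries. Cox7a2 was 91.4 to 96.0 FPKM in HFHG and 103 to 111 FPKM in LG (log2 fold change -0.19, adjusted p = 1.04e-04 in limma). Cox7a2l, which encodes a factor of respiratory supercomplexes, was 95.4 to 102.5 FPKM in HFHG and 127 to 140 FPKM in LG (log2 fold change -0.43, adjusted p = 2.11e-07 in limma). Cox7a1 made up 2.54% ± 0.689 of the FPKM of the 3 genes in HFHG and 2.56% ± 0.480 in LG (SD, n = 4 each). Cox7a1 (NCBI gene 12865) is on chromosome 7 from 30184144 to 30186078, plus strand.

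Cox8b, the muscle-type subunit 8, was close to the limit of detection, with 2, 5, 0 and 1 reads in HFHG and 5, 4, 9 and 4 reads in LG. HFHG replicate 2 was within the range of LG. The 8 reads of HFHG and 22 reads of LG amount to means of 0.153 ± 0.169 and 0.429 ± 0.186 FPKM (SD, n = 4 each), and the 0 reads of HFHG replicate 3 allow up to 0.230 FPKM, a limit for counting error only. The log2 difference was -1.24 with all libraries, -0.54 without HFHG replicates 3 and 4, and -1.94 without HFHG replicates 1 and 2. Its counterpart Cox8a was 316 to 326 FPKM in HFHG and 319 to 350 FPKM in LG, and did not pass the test (log2 fold change -0.04, adjusted p = 0.272 in limma). With quantile normalization Cox8a had a log2 fold change of 0.22 and passed as higher in HFHG. Cox8b (NCBI gene 12869) is on chromosome 7 from 140898945 to 140900446, minus strand.

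Ckmt2 was a low transcript in 6 libraries and absent from the reads of 2. It had 23, 13, 0 and 0 reads in HFHG and 12, 15, 13 and 14 reads in LG, the same split as Actc1. In FPKM this was 0.414 and 0.247 in HFHG replicates 1 and 2, where LG lay between 0.235 and 0.278, and the 0 reads of HFHG replicates 3 and 4 allow up to 0.0561 and 0.0552 FPKM. The log2 difference was -0.79 with all libraries and 0.25 without HFHG replicates 3 and 4, and the part of the heart muscle transcripts was not tested. Ckmt2 (NCBI gene 76722) is on chromosome 13 from 91853387 to 91876885, minus strand, and its exons overlap those of the antisense gene 1700119I11Rik. The other creatine kinases were measured beside it. Ckb, the cytosolic brain-type enzyme, was 21.95 to 23.2 FPKM in HFHG and 17.5 to 21.99 FPKM in LG, and was higher in HFHG (log2 fold change 0.21, adjusted p = 0.00598 in limma). Ckb did not pass without HFHG replicates 1 and 2, where its log2 fold change was 0.19. Transcripts of 1 annotated pseudogene are near-identical to Ckb. Ckmt1, the mitochondrial enzyme of other tissues, was below the filter at 0.104 to 0.201 FPKM in HFHG and 0.0162 to 0.123 FPKM in LG (p = 0.0571, exact two-sided permutation test). Ckm, the muscle-type cytosolic enzyme, was at most 0.459 FPKM (p = 0.314, exact two-sided permutation test). With 4 libraries against 4 the smallest p-value of this test is 0.0286.

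**Figure D2:**
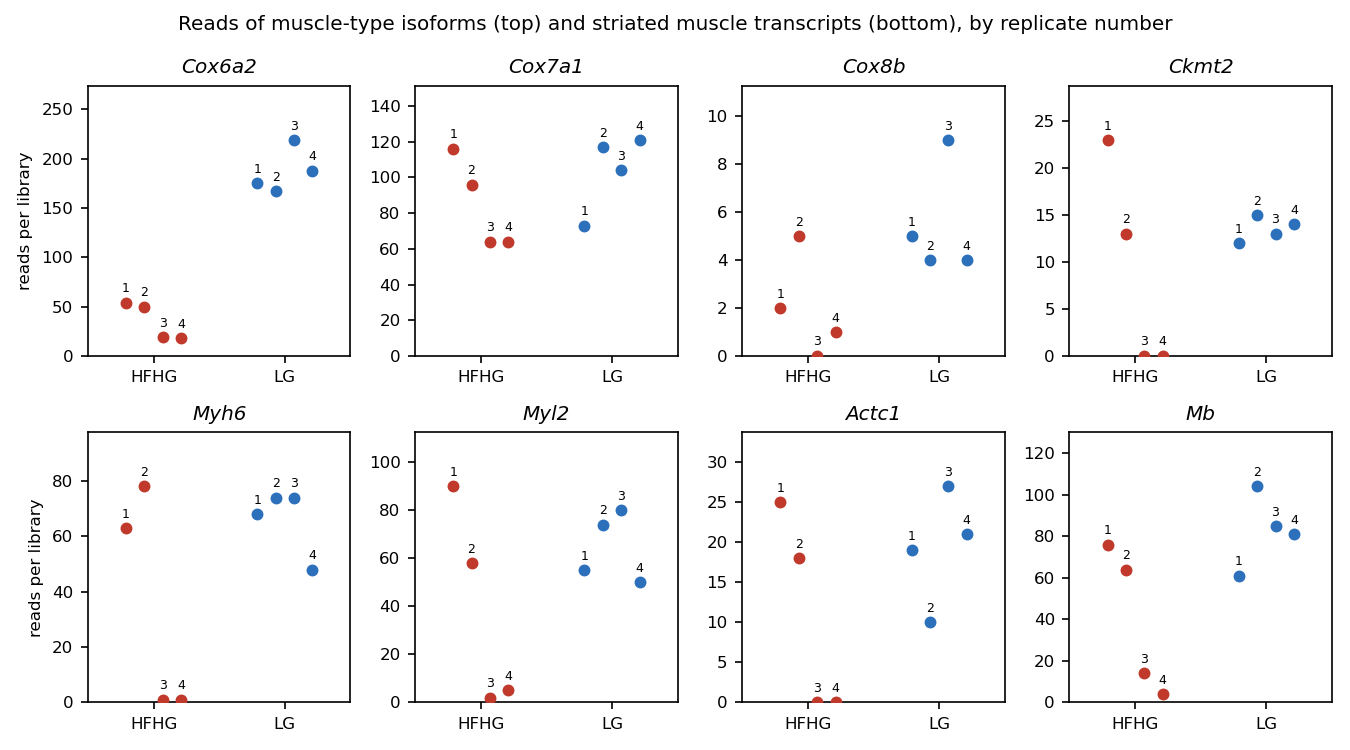
Reads per library of Cox6a2, Cox7a1, Cox8b and Ckmt2 (top) and of the striated muscle transcripts Myh6, Myl2, Actc1 and Mb (bottom) in HFHG (red) and LG (blue); each point is a library with its replicate number, and each axis starts at 0. HFHG replicates 3 and 4 lay at 0 to 14 reads for the 4 transcripts of the bottom row, and at 0 reads for Ckmt2. HFHG replicates 1 and 2 lay near the LG libraries except for Cox6a2 and, in replicate 1, Cox8b (lower) and Ckmt2 (higher, at 23 reads).

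Slc25a4 was the most abundant of the 10 genes in every library and differed little. It was 264, 257, 260 and 258 FPKM in HFHG and 244, 240, 248 and 256 FPKM in LG. The groups did not overlap, but HFHG replicate 2 and LG replicate 4 were nearly equal. The log2 difference was 0.07 (standard error 0.0244) and was 0.23 with quantile normalization. Slc25a4 (NCBI gene 11739) is on chromosome 8 from 46206797 to 46211284, minus strand. Its counterpart Slc25a5 (ANT2), the carrier of most dividing cells, fell. Slc25a5 was 88.8, 86.8, 88.6 and 84.0 FPKM in HFHG and 130, 120.5, 125 and 134 FPKM in LG (log2 fold change -0.55, standard error 0.0337, adjusted p = 1.8e-08 in limma). Transcripts of 5 other annotated genes, 4 of them pseudogenes, are near-identical to Slc25a5, and its values are uncertain to that extent. Slc25a4 made up 74.9% ± 0.375 of the FPKM of the carriers in HFHG and 66.0% ± 0.654 in LG (SD, n = 4 each). The sum of Slc25a4 and Slc25a5 was 347 ± 4.93 FPKM in HFHG and 375 ± 12.2 FPKM in LG. Slc25a31, the carrier of the testis, was at most 0.169 FPKM (p = 0.229, exact two-sided permutation test).

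**Figure D3:**
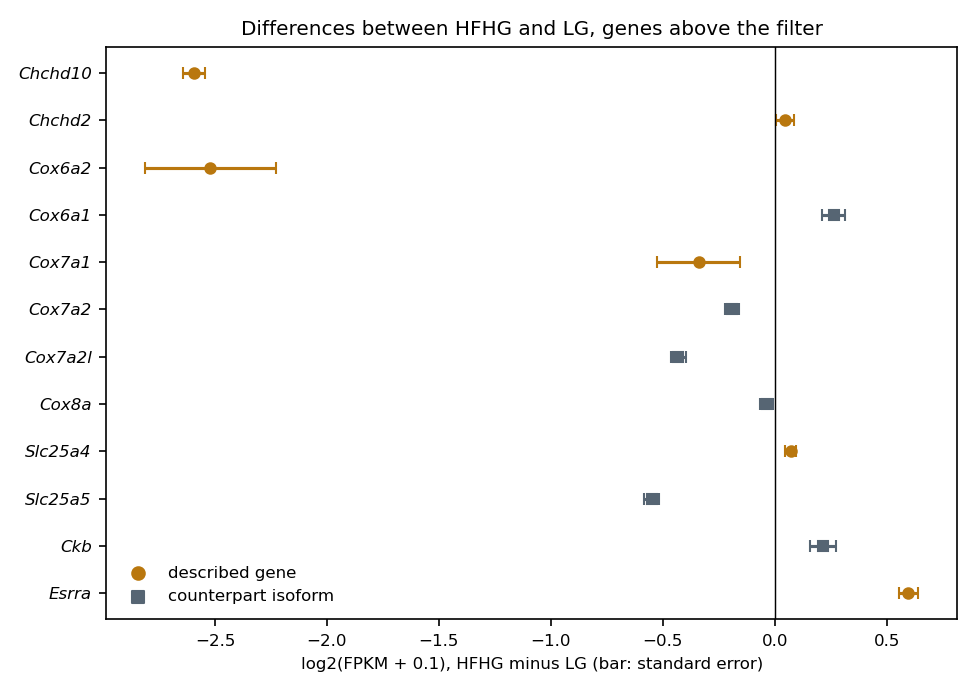
Difference of log2(FPKM + 0.1), HFHG minus LG, with its standard error for the described genes above the filter (circles) and their counterpart isoforms above the filter (squares). Chchd10 at -2.59 and Cox6a2 at -2.52 lay far to the left, while Chchd2 and Slc25a4 were near 0 and Esrra was at 0.60.

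**Figure D4:**
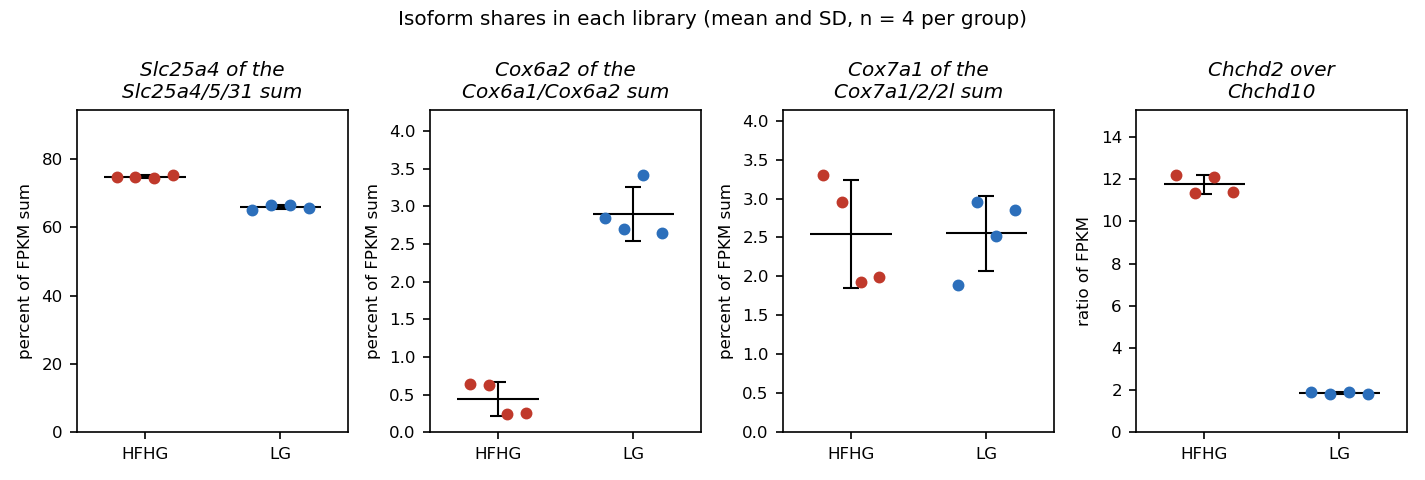
Share of the muscle-type isoform in the FPKM sum of its family, and FPKM of Chchd2 over Chchd10, in each library of HFHG (red) and LG (blue) with mean and SD (n = 4 each). The share of Slc25a4 was 74.9% in HFHG and 66.0% in LG, that of Cox6a2 was 0.445% and 2.90%, and that of Cox7a1 was 2.54% and 2.56% with overlapping libraries.

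Among the regulators, Esrra was higher in HFHG. It was 27.0, 25.5, 23.6 and 24.4 FPKM in HFHG and 16.8, 16.7, 15.9 and 16.8 FPKM in LG, and every HFHG library lay above every LG library. The means were 25.1 ± 1.47 and 16.5 ± 0.451 FPKM (SD, n = 4 each), 1.52-fold higher in HFHG, with a log2 difference of 0.60 (standard error 0.0440). Esrra (NCBI gene 26379; chromosome 19 from 6910977 to 6921813, minus strand) shares exon sequence with Trmt112 on the other strand. Trmt112 differed in the opposite direction, at 26.3 to 27.1 FPKM in HFHG and 35.5 to 46.2 FPKM in LG.

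Both coactivators were barely detected. Ppargc1a had 31, 23, 21 and 14 reads in HFHG and 27, 11, 9 and 10 reads in LG, which is at most 0.0522 FPKM in any library. The groups overlapped because LG replicate 1 lay among the HFHG libraries. Ppargc1b had 30, 21, 32 and 11 reads in HFHG and 11, 24, 26 and 24 reads in LG, at most 0.0846 FPKM, and the groups overlapped fully. The deposited values of these genes correspond to lengths of 15903 bases for Ppargc1a and 10503 bases for Ppargc1b, against 6592 and 3990 exon bases in GENCODE M21, and a longer length makes the FPKM of the same reads lower. The other nuclear receptors of the family, Esrrb and Esrrg, were also below the filter, with means of at most 0.0441 FPKM. Ppargc1a (NCBI gene 19017) is on chromosome 5 from 51454250 to 51567726 and Ppargc1b (NCBI gene 170826) on chromosome 18 from 61298136 to 61400431, both on the minus strand.

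The order of the levels per length was not the same in both groups. In LG it ran from Slc25a4 over Chchd2, Chchd10, Esrra, Cox6a2, Cox7a1, Cox8b, Ckmt2 and Ppargc1b to Ppargc1a. Cox6a2 was above Cox7a1 in 3 of 4 LG libraries and their ranges overlapped, as did those of Ppargc1b and Ppargc1a. In HFHG, Esrra was above Chchd10 in all 4 libraries, the reverse of all 4 LG libraries, and Cox7a1 was above Cox6a2 in all 4. The deposited values correspond to lengths of 2242 bases for Esrra, 910 for Chchd2 and 1552 for Chchd10. GENCODE M21 gives 4387, 2269 and 1575 exon bases for them. The places of Esrra, Chchd2 and Chchd10 relative to each other therefore depend on the length used. Cox8b and Ckmt2 could not be ordered in HFHG. The genes with the profile most like that of Chchd10 over the 8 libraries, by the distance of log2(FPKM + 0.1) centred on the mean of each gene, were Myom2 (distance 0.373), Tenm4 (0.416) and Cth (0.524). Myom2 was 0.296 to 0.370 FPKM in HFHG and 2.14 to 2.39 FPKM in LG, and Cth was 3.09 to 3.81 and 16.2 to 19.5 FPKM. Those most like Cox6a2 were Skint7 (0.843), Krt19 (1.07) and Ecel1 (1.31). Krt19 was 2.24 to 3.71 FPKM in HFHG and 11.5 to 13.4 FPKM in LG. These distances use the values in which Chchd10 and Cox6a2 were known to be lower in HFHG. Genes with a similar group difference are therefore found by construction, and the likeness is a description only. Myom2, Tenm4 and Skint7 were below 0.5 FPKM in every HFHG library and passed the filter only through LG.

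Of the 10 counterpart isoforms, 9 were in the table and 6 passed the filter. At an adjusted p-value below 0.05 in limma, 2 were higher in HFHG (Cox6a1 and Ckb), 3 were lower (Cox7a2, Cox7a2l and Slc25a5) and Cox8a did not pass. Their median log2 fold change was -0.11. The other nuclear subunits of cytochrome c oxidase gave 10 tested genes, of which 2 were higher, 4 were lower and 4 did not pass, with a median of -0.06. This balance depended on the scaling, with 4 higher and 3 lower when FPKM were rescaled to the same sum, 1 higher and 5 lower with median-ratio scaling, and 4 in each direction with quantile normalization. Cox6b2, the testis-type subunit 6B, had the largest increase, from 4.57, 6.27, 4.70 and 5.24 FPKM in LG to 18.5, 18.6, 19.2 and 18.1 FPKM in HFHG. All HFHG libraries of Cox6b2 lay above all LG libraries, a difference of 1.83 ± 0.0815 (standard error) on the log2 scale (adjusted p = 8.86e-10 in limma). Cox4i2, the hypoxia-induced subunit 4, was 5.16 to 6.96 FPKM in HFHG and 4.37 to 5.95 FPKM in LG and was close to the threshold (log2 fold change 0.26, adjusted p = 0.0429 in limma). It did not pass when HFHG replicate 1, 2 or 3 or LG replicate 1, 2 or 3 was left out, nor with median-ratio scaling or quantile normalization. Cox4i1, the usual subunit 4, fell from 379 to 413 FPKM in LG to between 304 and 316 FPKM in HFHG (log2 fold change -0.33, adjusted p = 3.85e-07 in limma). Cox7b, Cox5a and Cox5b were lower as well (log2 fold changes -0.26, -0.18 and -0.11), and Cox6b1, Cox6c, Cox7c and Ndufa4 did not pass.

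Of the genes of CHCH-domain proteins and of the inner membrane complex MICOS, 37 were tested. By limma, 8 were higher, 13 were lower and 16 did not pass, with a median log2 fold change of -0.02. After rescaling to one sum, which also raised the count of higher genes over all tested genes to 4692 and their median log2 fold change from 0.02 to 0.08, 15 were higher and 11 were lower. Cox19 and Cmc2, assembly factors of cytochrome c oxidase, had log2 fold changes of 0.57 and 0.58. Oma1, a protease of the inner membrane, was 1.23 to 1.945 FPKM in HFHG and 1.21 to 1.32 FPKM in LG (log2 fold change 0.32, adjusted p = 0.0344 in limma). Oma1 did not pass when HFHG replicate 1, 3 or 4 or LG replicate 1, 3 or 4 was left out, nor with quantile normalization. Chchd4, which drives the import of CHCH proteins, and Chchd3, a subunit of MICOS, were lower, with log2 fold changes of -0.47 and -0.45, as was Dnajc11 (-0.39). The decreases in this list were smaller than that of Chchd10. Chchd10 was chosen with its large decrease known, so this ranking is not a result.

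Of the regulators of the PGC-1 and ERR network, 38 were tested, and 14 were higher, 9 were lower and 15 did not pass, with a median log2 fold change of 0.07. The balance depended on the scaling, with 18 higher and 7 lower after rescaling to one sum, 11 and 10 after median-ratio scaling, and 13 and 11 after quantile normalization. Foxo1, a forkhead factor restrained by insulin, rose from 4.175 to 4.48 FPKM in LG to between 8.35 and 8.88 FPKM in HFHG (log2 fold change 0.96, adjusted p = 3.55e-09 in limma). Epas1 (HIF-2α) and Thra, a thyroid hormone receptor, rose by 0.91 and 0.75 on the log2 scale. The deacetylase Sirt1, which acts on PGC-1α, was 2.12 to 2.88 FPKM in HFHG and 3.198 to 3.65 FPKM in LG (log2 fold change -0.52, adjusted p = 3.79e-04 in limma). Rbpj (-0.40) and the mitochondrial transcription factor Tfb1m (-0.32) were also lower. Without HFHG replicates 3 and 4 Tfb1m did not pass.

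Of 45 tested genes known as targets of ERRα or PGC-1 in mitochondria or nearby pathways, 19 were higher, 10 were lower and 16 did not pass. Their median log2 fold change was 0.04, beside 0.02 over all tested genes. Pdk4, the kinase that inhibits pyruvate dehydrogenase, was 48.5 to 49.6 FPKM in HFHG and 1.63 to 2.04 FPKM in LG (log2 fold change 4.65, adjusted p = 2.25e-14 in limma). Ucp2, an inner membrane carrier, and Acaa2, a thiolase of fatty acid oxidation, had log2 fold changes of 1.59 and 0.92. Lrpprc, which stabilises mitochondrial mRNA, was 8.60 to 9.07 FPKM in HFHG and 14.8 to 16.4 FPKM in LG (log2 fold change -0.80, adjusted p = 6.58e-09 in limma). The mitochondrial thioredoxin Txn2 (-0.71) and the angiogenic factor Vegfa (-0.44) were lower. Genes of this list were called in both directions.

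**Figure D5:**
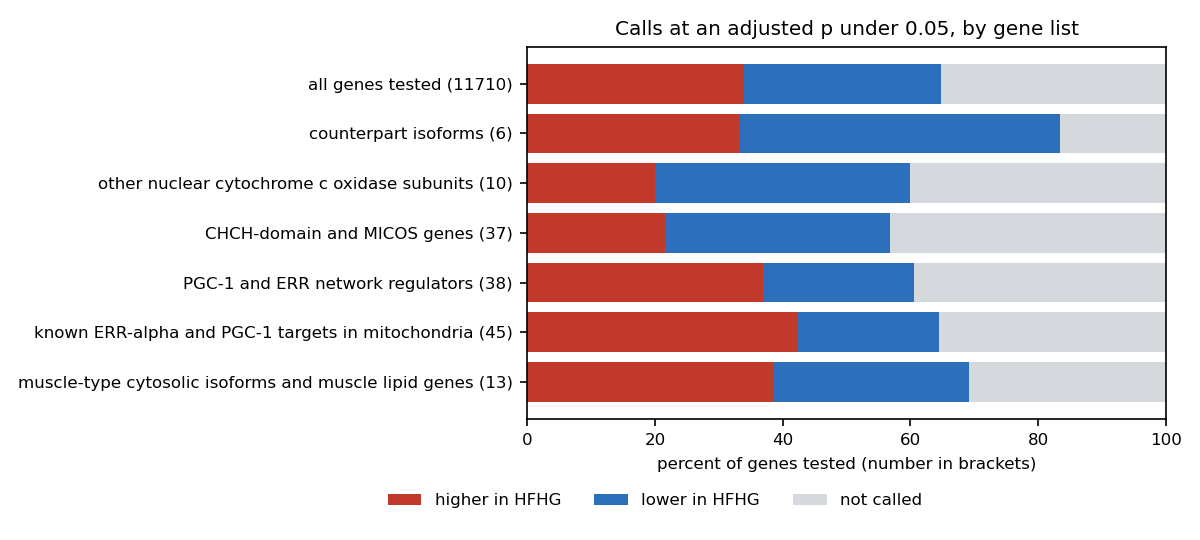
Percent of the tested genes of 6 lists that were higher in HFHG (red), lower in HFHG (blue) or not called (grey) at an adjusted p-value below 0.05 in limma, with the same over all 11710 tested genes in the top bar; the number in brackets is the number of genes tested. Each of the 6 lists drawn here held genes called in both directions, among them 19 higher and 10 lower of 45 targets of ERRα and PGC-1.

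Of the muscle-type cytosolic isoforms and muscle lipid genes, 13 were tested, with 5 higher, 4 lower and 4 not passing and a median log2 fold change of 0.08. Hk2, the hexokinase of insulin-sensitive tissues, was 15.9 to 16.8 FPKM in HFHG and 45.1 to 46.95 FPKM in LG (log2 fold change -1.49, adjusted p = 9.90e-13 in limma). Fabp3, the fatty acid binding protein of heart, was 10.5 to 11.8 FPKM in HFHG and 19.25 to 23.6 FPKM in LG (log2 fold change -0.95, adjusted p = 8.06e-08 in limma) and did not follow the split of the HFHG libraries. Myoglobin (Mb) did. Mb had 76, 64, 14 and 4 reads in HFHG and 61, 104, 85 and 81 reads in LG (log2 fold change -1.55, adjusted p = 0.0303 in limma). Without HFHG replicates 3 and 4 the log2 fold change of Mb was -0.25 and did not pass, and without HFHG replicate 4 alone it was -0.92 and did not pass. It did not pass either when HFHG replicate 3 or LG replicate 2, 3 or 4 was left out. Adssl1 (0.65), Ldhb (0.63) and Pfkm (0.53), enzymes of purine and glucose metabolism, were higher in HFHG, as were Cpt1b (1.28) and Lpl (0.28) of lipid metabolism, and the glycogen synthase Gys1 was lower (-0.44). Cpt1b passed the filter only through HFHG, at 1.07 to 1.34 FPKM against 0.369 to 0.495 FPKM in LG.

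Markers of other cell types moved differently. Of 33 skeletal muscle markers in the table, 4 passed the filter, and Tnnc1 (log2 fold change 0.77) and Actn3 (1.41) were higher and Acta1 was lower in HFHG. Actn3 passed the filter only through HFHG, at 0.606 to 1.07 FPKM against 0.153 to 0.360 FPKM in LG. The list summed to 9.51 to 12.4 FPKM in HFHG and 9.01 to 10.04 FPKM in LG. Its reads summed to 709, 688, 653 and 612 in HFHG replicates 1 to 4 and to between 533 and 618 in LG. HFHG replicates 3 and 4 were thus the lowest of HFHG for this list too. Unlike the sums of the heart markers, their sums did not fall below the range of LG. Acta1, skeletal actin, was 0.852, 0.935, 1.22 and 0.610 FPKM in HFHG and 3.15, 3.05, 3.90 and 3.42 FPKM in LG (log2 fold change -1.82, adjusted p = 5.23e-07 in limma). Of 15 cardiac markers, 5 passed the filter and 1 was called, Nppb, which was lower (log2 fold change -0.81). The list summed to 6.24, 5.23, 1.69 and 1.51 FPKM in HFHG and to between 5.04 and 6.42 FPKM in LG. The most abundant of the cardiac markers were Tnni3, Myl3 and Nppb. The adjusted p-value of Myl3 was 0.0602 in limma, with 40, 39, 3 and 0 reads in HFHG and 25 to 54 reads in LG, and Myl3 passed as lower when HFHG replicate 1 or 2 was left out and with quantile normalization. Its log2 fold change was -1.61 with all libraries and 0.0024 without HFHG replicates 3 and 4. Of 14 brown fat markers 4 were tested, and Fabp4 and Dio2, which other cell types also express, were higher (log2 fold changes 1.36 and 1.17) and Zic1 was lower (-0.58). Of 16 markers of mural cells 10 were tested, and all 10 were higher in HFHG, beside 34.0% of all tested genes. Among those named, Cnn1 (1.44), Notch3 (1.10) and Acta2 (0.60) were in the lead. Cox4i2 is 1 of these markers, and its call did not hold in several of the settings given above. Macrophage transcripts were present in all libraries, with Lyz2 at 1615 to 1662 FPKM in HFHG and 1736 to 1811 FPKM in LG, and of the 7 macrophage and endothelial markers tested Cd14 and Tek were higher and Adgre1, Cd68, Csf1r and Lyz2 were lower, Lyz2 with a log2 fold change of -0.11 that was 0.0062 with quantile normalization. Of 18 tendon markers 14 were higher, led by Col1a1 (1.36), Pdgfra (1.20) and Thbs4 (1.14), and Mkx, Egr1 and Cd44 were lower. The part of these cell types in the values of the 10 genes was not tested.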

How the data were processed

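mRNA of 4 HFHG and 4 LG libraries of mouse TSCs was compared, with groups and replicate numbers taken from the sample labels. The authors deposited FPKM per gene and library, made from stranded libraries, and the submitters' processing notes name HISAT2 2.1.0 and mm10. The counting program, its use of strand, the annotation and the handling of reads that match several genes are not given in the sources used here. The values were whole reads scaled by gene length and library total (19301 of 19301 genes, tolerance 1e-06 per read), so reads were recovered from them and served for depth and low values. The 8 columns of FPKM were used, and the annotation columns were not.

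Genes with FPKM of at least 0.5 in at least 4 libraries were tested with limma 3.58.1 in R 4.3.3 on log2(FPKM + 0.1), with an intensity trend, no covariates and Benjamini-Hochberg adjustment over 11710 genes. Fold changes on this scale understate those of low genes. Genes below the filter that are not among the 10 were compared with an exact permutation test over 70 arrangements. The members and lists were chosen with earlier results of these data known. Named are all 10 genes, every counterpart isoform, per list up to 3 genes called in each direction with the largest change and a mean of at least 1 FPKM, for marker lists also the 3 most abundant genes, and the 3 nearest profiles of Chchd10 and Cox6a2. Others, such as Actc1, Myh6, Myl2, Esrrb, Myod1, Myf6, Ucp1 the overlapping genes and further members of short counts, were named after their values were seen. Cox8c, Sco2, Mef2b, Myog and Myf5 were not analysed here. Positions come from GENCODE M21 (GRCm38). Promoters come from RefSeq (GRCm38.p6). Near-identical means at least 90% identity over at least 50% of a transcript. Alternatives were other pseudocounts, filters and scalings, the replicate number as a block and each library left out. Leaving out HFHG replicates 3 and 4, or 1 and 2, and voom on recovered reads were added after seeing the data. The replicates are biological according to the study.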

Additional observations from a re-analysis of the deposited data

Results flagged for a closer look

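In 8 groups of 4 libraries, 1 library lay far from the other 3, by the gap to its neighbour as a share of the range of the group. Chance alone gives about 1 such library in 20 groups, and 154 groups of the named genes were looked at. Chchd10 was 98.5 FPKM in LG replicate 4, where the other LG replicates were 84.9 to 86.3 FPKM, so the LG mean of Chchd10 lay above 3 of its 4 libraries. Ppargc1a was 0.0495 FPKM in LG replicate 1 (27 reads) and 0.0160 to 0.0191 FPKM in the others. Dnajc11 (10.2 FPKM), Hk2 (45.1 FPKM) and Bgn (1436 FPKM) stood apart in LG replicate 4, and Pdgfra, a growth factor receptor among the tendon markers, in LG replicate 1 (9.99 FPKM). In HFHG, Foxo1 stood apart in replicate 1 (8.88 FPKM) and Txn2 in replicate 4 (56.6 FPKM). The pairs of HFHG libraries that differed in Cox6a2, Cox7a1 and Ckmt2 were not found in this way, which looks for 1 library at a time.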

How the results depend on the processing

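The log2 difference of Chchd10 stayed between -2.64 and -2.52 over the pseudocounts, scalings and left-out libraries, and that of Esrra between 0.53 and 0.66. Cox6a2 was -1.92 with a pseudocount of 1, and -2.76 to -2.28 when 1 library was left out. Without HFHG replicates 3 and 4 the log2 difference of Cox7a1 shrank to 0.01, almost no difference, and that of Ckmt2 turned to 0.25, as given above. Cox8b, Ckmt2, Ppargc1a and Ppargc1b rest on few reads, and their log2 differences move with the pseudocount (-2.27 for Cox8b and -2.21 for Ckmt2 with 0.01).

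The number of genes past a 2-fold change, 624, fell to 303 with a pseudocount of 1, by its construction for low genes. The 2 cytochrome c oxidase genes called higher became 4 with quantile normalization or same-sum scaling, and 1 with median-ratio scaling, without the filter, with voom on the recovered reads or without HFHG replicates 1 and 2, and 1 to 3 when 1 library was left out. Without HFHG replicates 1 and 2, 1 counterpart isoform was called higher in place of 2. Rescaling to the same sum also gave 15 CHCH-domain and MICOS genes higher in place of 8. Without the filter, 8 muscle-type cytosolic genes were higher in place of 5. Quantile normalization reversed the sign of Cox8a (0.22), Lyz2 (0.0062) and Dcn (0.28). The cause of these changes was not tested.

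Same-numbered HFHG and LG libraries did not deviate together (correlations -0.07 to -0.01), so the values gave no sign of a pairing by number. The sources used here do not say whether equal numbers share a cell preparation, and these correlations cannot exclude it. With the replicate block 7342 genes were called in place of 7592, 1 cytochrome c oxidase gene was called higher in place of 2, and Myl3 passed as lower.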
